A study of Mus musculus with 12 samples.

Results

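The genes described here are 10 known marker genes of lipid-associated macrophages, Gpnmb, Trem2, Spp1, Cd9, Cd63, Lgals3, Itgax, Fabp5, Atp6v0d2 and Mmp12, read in RNA sequencing of mouse liver. They were taken by symbol from a table of 50499 genes. All 10 were present and passed the filter on low counts when all 12 libraries were filtered together. The 12 libraries fall into 4 groups of 3. Western siAATF livers came from mice on a Western diet with sugar water that received AAV8-TBG-siAATF, and Western null livers from mice on the same diet that received AAV8-TBG-Null. Chow siAATF and chow null livers came from mice on chow with normal water that received AAV8-TBG-siAATF and AAV8-TBG-Null. All were C57Bl/6NCrl males that entered the study at 6 weeks of age, so every group, controls included, carried an AAV8 vector, given by tail vein after 12 weeks of diet, and livers were taken 12 weeks after that. TBG is a hepatocyte promoter, so the vector was aimed at hepatocytes, whereas the genes described here are best known from macrophages. The labels number the samples 1 to 3 and do not state whether each came from its own mouse, and the p-values reflect the spread among these samples, which may be technical.

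Lipid-associated macrophages are tissue macrophages that gather where lipid is released, around dying adipocytes and, in steatohepatitis, around lipid-laden hepatocytes and scars. TREM2, a surface receptor for lipids and apolipoproteins that signals through the adaptor TYROBP, drives much of their programme of lipid uptake and lysosomal digestion. In fatty mouse liver such cells arise largely from monocytes and differ from the resident Kupffer cells. Several of the 10 genes are not private to them: osteopontin is also made by bile duct cells, the tetraspanins CD9 and CD63 and the fatty acid binding protein FABP5 by many cell types, CD11c (Itgax) by dendritic cells, and the V-ATPase subunit encoded by Atp6v0d2 by osteoclasts.

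On the Western diet 6 of the 10 genes, Gpnmb, Mmp12, Trem2, Spp1, Cd63 and Lgals3, were lower in the libraries labelled siAATF than in those labelled null, and none was called higher. Of all 11934 genes tested, 0.561% were called lower in that comparison (67 genes) and 0.310% higher. The mean level left in Western siAATF libraries, as a percentage of the Western null mean, was 1.4% for Gpnmb, 3.83% for Mmp12, 13.5% for Trem2, 15.9% for Spp1, 23.9% for Cd63 and 25.3% for Lgals3. Itgax (33.8%), Atp6v0d2 (39.6%) and Cd9 (47.5%) also had lower means without passing the test. Fabp5 stood the other way, at 242%, and did not pass either. Between Western null and chow null livers, 8 of the 10 were higher and none lower, against 6.44% of all genes called higher and 6.77% lower. Between chow siAATF and chow null livers no member was called, and 0.00% of all genes were. The members were proposed with earlier results of these data known, so these counts are descriptions of the 10 genes and no test of the list as a whole.

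Library size and the targeted gene bear on all of this. Libraries held between 1646853 and 13469819 counts, of which the 18S ribosomal RNA gene took 0.871% to 50.8%. Levels are given in CPM, counts divided by TMM-scaled library size, on which a count of 3 corresponds to 0.185 to 1.69 CPM depending on the library. Counting intervals, given for ratios of summed counts, and these floors cover counting error only. Intervals of log2 fold changes come from the edgeR fit and also include the spread among libraries. Aatf, the gene the vector was meant to silence, stood at 27.0, 27.5 and 28.2 CPM in Western siAATF and at 27.6, 21.1 and 30 CPM in Western null libraries (log2 fold change 0.06 ± 0.25, SE). On chow it stood at 39.2, 24.6 and 40.5 CPM in the siAATF libraries, against 36.8, 26.5 and 31.6 CPM in the null libraries. Neither diet showed less Aatf under the siAATF label, so every vector difference below rests on the label. Marker genes of hepatocytes summed to between 62228 and 90121 CPM in Western siAATF and 66469 and 74457 CPM in Western null libraries. They summed to between 99296 and 102651 CPM in chow siAATF and 95114 and 128308 CPM in chow null libraries. All Western libraries thus lay below all chow libraries, and the part of this in the diet differences was not tested. In whole tissue, fewer cells of a type and less RNA per cell cannot be told apart.

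The 4 members with the largest differences between Western siAATF and Western null are shown by the sequence just upstream of their outermost annotated start, since they moved together and their promoters are where shared letters could be looked for. The sequences are from RefSeq on build GRCm38.p6, which is not the GRCm39 build of the counts, and run 250 bases 5′ to 3′ on the gene's own strand, ending at the base before the start. Capitals mark matches on either strand to 5 short motifs.
Gpnmb, chr6:49036268-49036517, plus strand: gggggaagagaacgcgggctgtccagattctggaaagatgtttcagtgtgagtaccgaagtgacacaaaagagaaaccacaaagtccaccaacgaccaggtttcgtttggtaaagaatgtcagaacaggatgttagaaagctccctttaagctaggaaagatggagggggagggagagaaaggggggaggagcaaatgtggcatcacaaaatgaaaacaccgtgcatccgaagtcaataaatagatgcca
Mmp12, chr9:7344147-7344396, plus strand: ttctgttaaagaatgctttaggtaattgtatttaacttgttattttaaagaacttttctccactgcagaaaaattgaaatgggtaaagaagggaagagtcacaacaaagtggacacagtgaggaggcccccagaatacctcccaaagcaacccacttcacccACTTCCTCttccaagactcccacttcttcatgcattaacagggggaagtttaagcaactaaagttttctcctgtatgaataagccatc
Trem2, chr17:48346151-48346400, plus strand: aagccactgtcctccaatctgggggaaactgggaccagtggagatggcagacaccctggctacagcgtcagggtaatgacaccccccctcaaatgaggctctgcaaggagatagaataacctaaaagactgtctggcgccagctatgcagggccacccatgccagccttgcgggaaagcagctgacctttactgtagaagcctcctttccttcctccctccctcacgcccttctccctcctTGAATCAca
Spp1, chr5:104434861-104435110, plus strand: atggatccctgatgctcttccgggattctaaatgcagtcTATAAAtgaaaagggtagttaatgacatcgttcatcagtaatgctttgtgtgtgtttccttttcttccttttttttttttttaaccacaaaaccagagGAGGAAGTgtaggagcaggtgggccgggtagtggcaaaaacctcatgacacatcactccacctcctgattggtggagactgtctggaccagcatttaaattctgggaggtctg

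The motifs searched were the E-box CATGTG that MiT/TFE factors can bind, the palindromic E-box CACGTG, the AP-1 element TGANTCA, the PU.1 element GAGGAAGT of the macrophage lineage factor, and the TATA box TATAAA. Promoters were in the table for 8 of the 10 members. The PU.1 letters were found in Mmp12 (88 to 81 bases before the start) and in Spp1 (113 to 106 bases before it), and in 2.42% of 27026 promoters, 1 for each gene. The AP-1 letters were found in Trem2, ending 3 bases before the start, and in Itgax (56 to 50 bases before it), against 6.85% of all promoters. CATGTG, read on the other strand, was found only in Cd9 among the 8, against 12.2% of all promoters, and CACGTG in none of the 8, against 6.04%. TATAAA was found in Spp1, 211 to 206 bases before the start, and in 13% of all promoters. The Gpnmb window held none of the 5, and no match overlapped another. These matches describe letters in a window and show neither binding nor its absence.

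**Figure D1:**
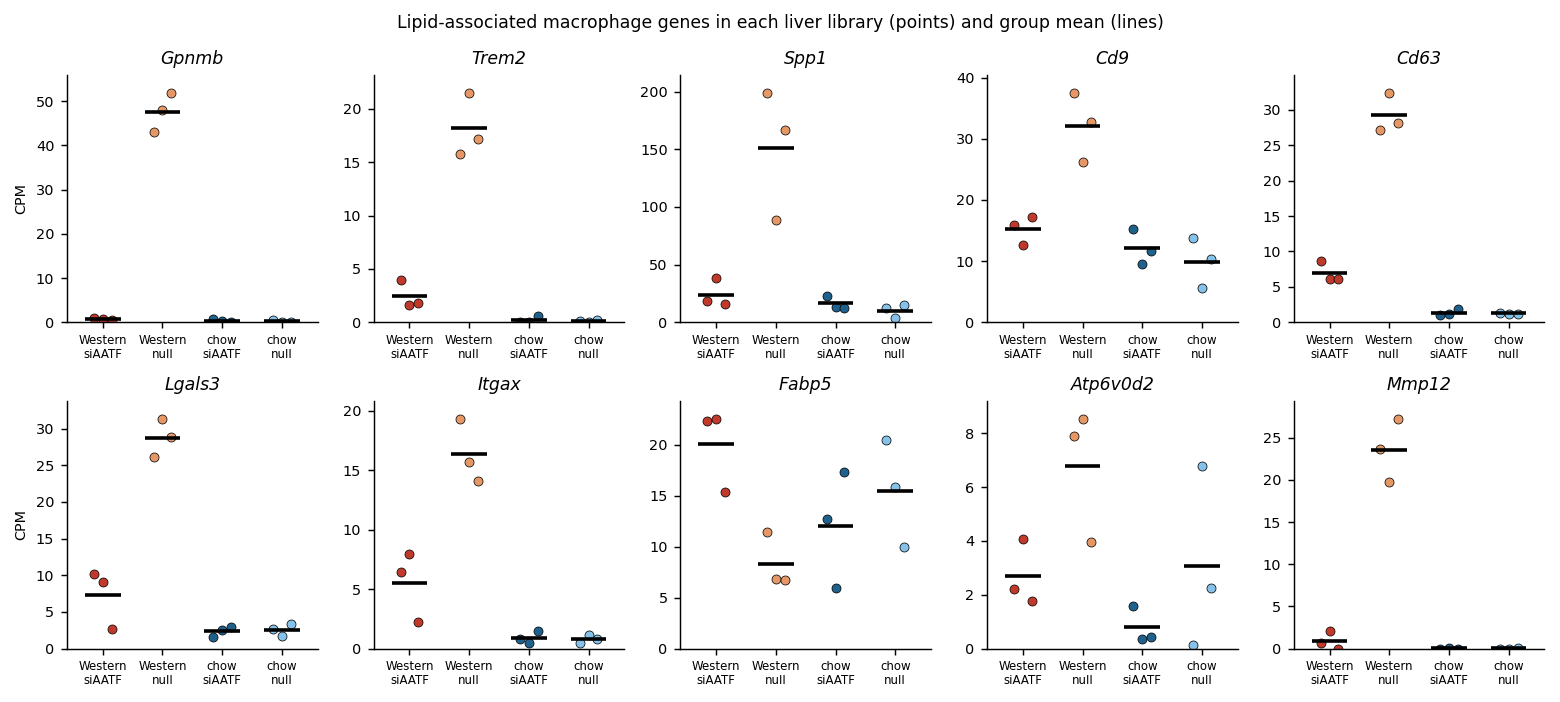
CPM of the 10 genes in each library (points) with the mean of each group of 3 (black line), on linear axes that start at 0. In 8 of the 10 panels all 3 Western siAATF libraries lie below all 3 Western null libraries, while in the Fabp5 panel they lie above them and in the Atp6v0d2 panel they overlap.

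Among the surface receptors, Gpnmb had the sharpest pattern. GPNMB is a transmembrane glycoprotein of lysosome-rich macrophages, and its gene lies on GRCm39 chromosome 6 at 49013449 to 49044413, plus strand. It stood at 0.885, 0.681 and 0.44 CPM in Western siAATF libraries and at 43.0, 48.0 and 51.9 CPM in Western null libraries. The chow siAATF libraries had 0.794, 0.185 and 0 CPM, and the chow null libraries 0.457, 0 and 0.0871 CPM. Only the Western null libraries were high, with 806 counts together against 8 in Western siAATF, and the other 3 groups lay among each other at a few counts per library. The log2 fold change of Western siAATF over Western null was -6.04 ± 0.50 (edgeR quasi-likelihood test, adjusted p = 8.39e-06 by Benjamini-Hochberg), and it stayed called in all 16 alternatives run, between -6.28 and -5.86. Western null over chow null was 7.59 ± 0.55 and was called in all 16 alternatives, although chow null held only 5 counts. It became 8.96 when chow null replicate 1 was left out, 6.94 when chow null replicate 3 was left out, and 8.85 when the libraries rich in 18S RNA (over 25%) were left out. That last alternative kept chow null replicate 3 as the only chow null library.

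Trem2, the lipid receptor itself (chromosome 17, 48653429 to 48659304, plus strand), was also highest in Western null, but it kept more signal in Western siAATF. It stood at 3.98, 1.59 and 1.76 CPM in Western siAATF libraries, against 15.8, 21.5 and 17.2 CPM in Western null libraries. On chow, siAATF libraries had 0, 0.0616 and 0.627 CPM and chow null libraries 0.114, 0 and 0.174 CPM. All 3 Western siAATF libraries thus lay under the Western null libraries and above every chow library. The log2 fold change of Western siAATF over Western null was -2.84 ± 0.50 (adjusted p = 0.0102, same test). This call was lost without Western null replicate 2 (adjusted p = 0.0513), without Western null replicate 3 (0.0709) and when the 4 libraries rich in 18S RNA were dropped (0.0526), with values between -3.43, without Western siAATF replicate 1, and -2.55. Over the 16 alternatives its adjusted p ran from 4.59e-06 to 0.0709. Against chow null, 286 counts in Western null stood beside 3, 130 times as much after scaling (44.2 to 636, 95% counting interval).

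Itgax encodes CD11c, the alpha chain of a leukocyte integrin (chromosome 7, 127728697 to 127749829, plus strand). It stood at 6.41, 7.94 and 2.20 CPM in Western siAATF libraries and at 19.3, 15.7 and 14.1 CPM in Western null libraries. Chow siAATF libraries had 0.794, 0.492 and 1.46 CPM, and chow null libraries 0.457, 1.13 and 0.784 CPM. The 4 groups formed 3 levels, with Western siAATF between Western null and the chow groups and no overlap between these levels. The vector difference on the Western diet was -1.49 ± 0.43 (adjusted p = 0.146), which did not pass. It passed with DESeq2 (0.0478) and with no low-count filter (0.0452), and ran from 0.0452 to 0.447 over the alternatives. Western null over chow null was 4.51 ± 0.54 (adjusted p = 9.07e-05, edgeR).

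The secreted products came next. Mmp12 encodes the macrophage elastase, a metalloproteinase that cuts elastin and other matrix proteins (chromosome 9, 7344397 to 7360461, plus strand). It stood at 0.663, 2.04 and 0 CPM in Western siAATF libraries and at 23.7, 19.8 and 27.2 CPM in Western null libraries. In each chow group a single count was found over 3 libraries, so no fold is given between them. Mmp12 was therefore close to private to the Western null libraries, with 409 counts there and 12 in Western siAATF. The log2 fold change of Western siAATF over Western null was -4.49 ± 0.55 (adjusted p = 6.06e-04, edgeR). It stayed called in all 16 alternatives and became -5.72 without Western siAATF replicate 2, the library that held 9 of the 12 counts. Dropping the libraries rich in 18S RNA, that replicate among them, also gave -5.72. Against the 1 count in chow null, the 409 counts of Western null gave a ratio of 559 (95% counting interval 99.8 to 22143), called in all 16 alternatives. The fitted log2 value of 8.51 became 10.06 when chow null replicate 3, which held that count, was left out. It became 7.84 when the libraries rich in 18S RNA were left out, with chow null replicate 3 then the only chow null library.

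Spp1 encodes osteopontin, a phosphoprotein that binds integrins and CD44 (chromosome 5, 104582977 to 104588919, plus strand). It was the most counted member, at 18.6, 38.1 and 15.4 CPM in Western siAATF libraries and at 199, 88.3 and 167 CPM in Western null libraries. On chow, siAATF libraries had 23.0, 13.5 and 12.3 CPM and chow null libraries 12.5, 3.39 and 14.6 CPM. Western siAATF values overlapped those of chow siAATF, and Western null replicate 2 was the lowest of its group. The vector difference on the Western diet was -2.64 ± 0.45 (adjusted p = 0.0107, edgeR). The call was lost without Western siAATF replicate 1 (0.0663), without Western null replicate 1 (0.0554) and without Western null replicate 3 (0.061), at log2 values of -2.47, -2.42 and -2.55, while the adjusted p over all alternatives ran from 2.10e-15 to 0.0663. Western null over chow null was 3.77 ± 0.47 (adjusted p = 2.41e-04).

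Lgals3 encodes galectin-3, a lectin that binds galactose-bearing glycans and marks damaged lysosomes (chromosome 14, 47611317 to 47623624, plus strand). It stood at 10.2, 9.08 and 2.64 CPM in Western siAATF libraries, against 26.2, 31.3 and 28.9 CPM in Western null libraries. Chow siAATF libraries had 1.59, 2.52 and 2.93 CPM and chow null libraries 2.63, 1.69 and 3.40 CPM. Western siAATF replicates 1 and 2 lay between Western null and chow, whereas replicate 3 lay among the chow libraries. The vector difference was -1.92 ± 0.37 (adjusted p = 0.0196, edgeR). This was the least steady of the 6 calls: it was lost without Western null replicate 1 (0.0625), 2 (0.0723) or 3 (0.104), when only the Western libraries were fitted (0.0689), with the replicate number as a block (0.0571) and at equal depth (0.0666), within a range of 5.45e-05 to 0.104. Western null over chow null was 3.36 ± 0.40 (adjusted p = 9.56e-05).

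The tetraspanins CD63 and CD9 are membrane proteins that span the bilayer repeatedly, CD63 mainly of late endosomes and lysosomes and CD9 mainly of the cell surface and vesicles. Cd63 (chromosome 10, 128731577 to 128748691, plus strand) stood at 8.62, 6.13 and 6.16 CPM in Western siAATF libraries and at 27.2, 32.4 and 28.1 CPM in Western null libraries. All 6 chow libraries lay between 1.06 and 1.88 CPM. As with Itgax, the groups made 3 separate levels. The vector difference was -2.05 ± 0.29 (adjusted p = 0.00207, edgeR) and was called in all 16 alternatives, between -2.51 and -1.94, and the diet difference under the null vector was 4.50 ± 0.34 (adjusted p = 9.45e-07).

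Cd9 (chromosome 6, 125437229 to 125471723, minus strand) had 15.9, 12.7 and 17.2 CPM in Western siAATF libraries and 37.5, 26.2 and 32.7 CPM in Western null libraries. Chow siAATF libraries had 15.3, 9.60 and 11.7 CPM and chow null libraries 13.7, 5.65 and 10.4 CPM. The Western null libraries lay above all others, and Western siAATF overlapped both chow groups. Western null over chow null was called (1.61 ± 0.30, adjusted p = 0.00284, edgeR), but the vector difference was not (-1.08 ± 0.30, adjusted p = 0.135). It passed with DESeq2 (0.0378) and with no low-count filter (0.0376), within a range of 0.0376 to 0.421. Other annotated genes overlap 48.3% of the Cd9 span, and how reads there were assigned is not stated. The spans of the other 9 members overlap no gene.

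The remaining pair belongs to lipid handling and the lysosome. By edgeR neither gene was called for the vector on the Western diet or for the diet under the null vector. Fabp5 lay in the opposite direction, whereas Atp6v0d2 lay in the direction of the other members. Fabp5 encodes a small cytosolic carrier of fatty acids (chromosome 3, 10077645 to 10081670, plus strand). It stood at 22.3, 22.5 and 15.4 CPM in Western siAATF libraries and at 11.4, 6.81 and 6.74 CPM in Western null libraries. Chow siAATF libraries had 12.7, 5.97 and 17.3 CPM and chow null libraries 20.5, 15.8 and 10 CPM. All Western siAATF libraries lay above all Western null libraries, while the Western null libraries overlapped the chow siAATF libraries and, at 11.4 CPM, the chow null libraries. The differences were 1.34 ± 0.40 for the vector on the Western diet (adjusted p = 0.165) and -0.94 ± 0.40 for the diet under the null vector (adjusted p = 0.132), neither of which passed edgeR's test. The first passed with no low-count filter (0.0111, range over the alternatives 0.0111 to 0.461).

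Atp6v0d2 encodes a d subunit of the membrane sector of the proton pump that acidifies lysosomes (chromosome 4, 19876838 to 19922566, minus strand). It stood at 2.21, 4.08 and 1.76 CPM in Western siAATF libraries and at 7.90, 8.52 and 3.95 CPM in Western null libraries. Chow siAATF libraries had 1.59, 0.369 and 0.418 CPM and chow null libraries 0.114, 6.78 and 2.26 CPM, so that chow null overlapped every other group. With 170 counts over all libraries it was the least counted of the 10, and its intervals were wide: -1.23 (95% interval -2.93 to 0.46) for the vector on the Western diet and 1.49 (-0.25 to 3.23) for the diet under the null vector. A difference of either sign was not detectable at this depth, apart from the diet difference with limma-voom (2.49, adjusted p = 0.0473, range 0.0473 to 0.559).

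**Figure D2:**
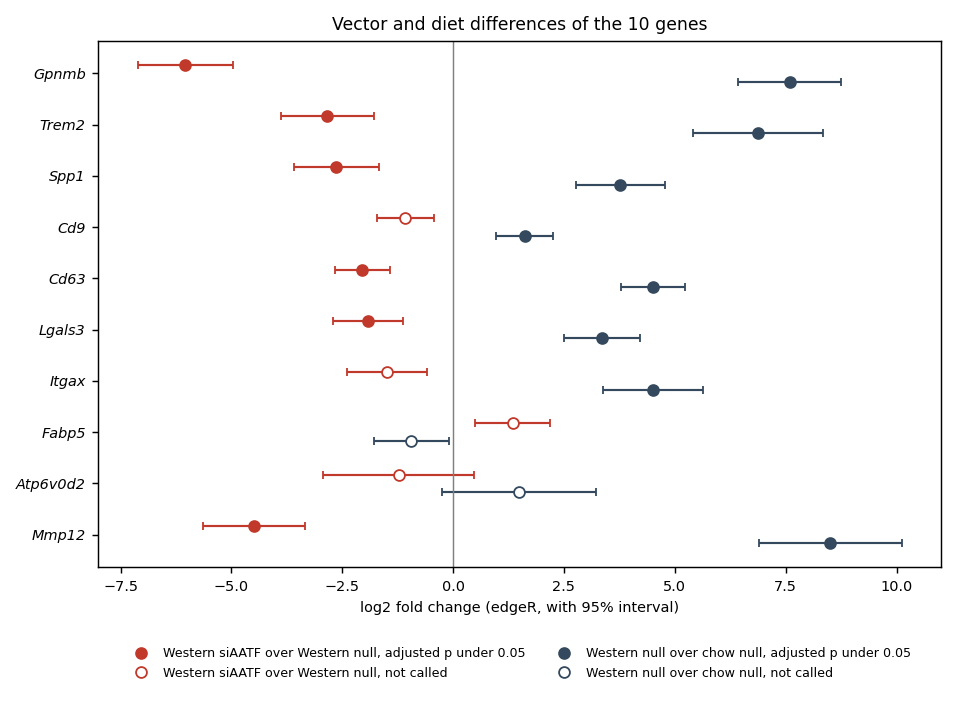
Log2 fold changes with 95% intervals for Western siAATF over Western null (red, upper of each pair) and Western null over chow null (dark, lower), with filled points where the adjusted p was under 0.05. The 6 filled red points run from -6.04 for Gpnmb to -1.92 for Lgals3, Fabp5 lies on the other side of 0 in both comparisons, and the dark points of Trem2 and Mmp12 are fitted against 3 counts and 1 count.

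Counted by library rather than by test, 8 of the 10 members had all 3 Western siAATF libraries under all 3 Western null libraries, and 1, Fabp5, had them above. Of all genes tested, 7.87% lay apart in the lower direction and 7.69% in the higher. The median log2 fold change was -1.98 over the 10 members and 0.06 over all genes. For Western null over chow null the same 8 genes that passed the test lay apart, all higher, against 17.7% of all genes, with a median of 4.14 against -0.03. These comparisons share the Western null libraries, so their opposite signs are not independent of each other.

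How far the Western siAATF livers stood from the chow livers differed from member to member. Against chow siAATF, which carried the same vector label, 3 of the 10 members were called higher: Trem2 (3.70 ± 0.74, adjusted p = 0.0217, edgeR), Cd63 (2.38 ± 0.34, adjusted p = 0.00318) and Itgax (2.79 ± 0.53, adjusted p = 0.0145). Of all genes, 0.763% were called higher there and 0.721% lower. These 3 and Atp6v0d2 had all Western siAATF libraries above all chow siAATF libraries and no member lay apart the other way, against 9.24% and 8.36% of all genes. Lgals3 (1.66 ± 0.41, adjusted p = 0.0544) came close, and Gpnmb (adjusted p = 0.421), Spp1 (0.60 ± 0.44) and Cd9 (0.33 ± 0.30) did not pass. Mmp12, with 12 counts against 1, had a ratio of 26.6 (95% counting interval 3.93 to 1136) and did not pass (adjusted p = 0.0509). The number called depended on the libraries, with 1 member left without Western siAATF replicate 1 or without chow siAATF replicate 2, and 5 without Western siAATF replicate 3. None of the 3 calls was left at equal depth (Cd63 0.0521). When only these 2 groups were fitted, Trem2 was not among the 7 members tested, and Cd63 (0.0586) and Itgax (0.0995) did not pass. Over the alternatives the adjusted p ran from 4.85e-06 to 0.0586 for Cd63, 1.28e-04 to 0.208 for Trem2 and 8.48e-05 to 0.144 for Itgax.

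Against chow null, 4 members were called higher in Western siAATF, the 3 above and Mmp12, against 1.26% of all genes, and none lower, against 1.17%. Libraries lay apart upward for Trem2, Spp1, Cd63 and Itgax, against 8.97% of all genes, and downward for none, against 8.36%. Cd63 was higher by 2.45 ± 0.35 (adjusted p = 0.00235, edgeR) and Itgax by 3.02 ± 0.55 (adjusted p = 0.0101), and Trem2 had 29 counts against 3, a ratio of 19 (95% counting interval 5.89 to 97.4). Mmp12 had 12 counts against 1, a ratio of 23.6 (3.49 to 1008), and its call (adjusted p = 0.0488) was lost without any 1 of 5 libraries: Western siAATF replicate 1 (0.0889) or 2 (0.191), or chow null replicate 1 (0.141), 2 (0.069) or 3 (0.159). Leaving out chow null replicate 1 or 3 kept 1 of the 4 calls, and leaving out Western siAATF replicate 1 kept 2. None was left at equal depth (Cd63 0.0978). When only these 2 groups were fitted, Trem2 and Mmp12 were not among the 7 members tested, and Cd63 (0.0699) and Itgax (0.0985) did not pass. The adjusted p of Cd63 ran from 3.44e-06 to 0.0978 and that of Mmp12 from 0.00406 to 0.403. Gpnmb, which had the largest vector difference of the 10, was not called against chow null (1.55 ± 0.82, 95% interval -0.18 to 3.28), nor was Spp1 (1.14 ± 0.45, adjusted p = 0.199).

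On chow no member was called for the vector label, but a lowering could hardly be seen for members with few counts there. Gpnmb held 6 counts in chow siAATF and 5 in chow null libraries, Trem2 4 and 3, and Mmp12 1 and 1. When only the chow groups were fitted, 5 members passed the filter on low counts. Of the 9 members with enough counts for a fold, edgeR called 0 and none had an unadjusted p under 0.05, against 285 of 11934 genes at that unadjusted level. The libraries of all 10 overlapped, whereas 4.25% of all genes lay apart upward and 4.32% downward. DESeq2 called 1 gene and no member, with 1 member under an unadjusted 0.05, and limma-voom called no gene. The 95% intervals differed in width: Cd9 ran from -0.44 to 0.84, Spp1 from -0.42 to 1.50 and Cd63 from -0.75 to 0.90 on the log2 scale, while Gpnmb ran from -1.73 to 1.99 and Atp6v0d2 from -3.81 to 0.24. The interaction term asks whether the vector difference itself differed between diets. It was called for 1 member, Gpnmb (-6.17 ± 1.15, adjusted p = 0.0396, edgeR), against 0.0922% of all genes called lower and 0.101% higher. With so few Gpnmb counts on chow, this call rests on the Western difference. That call was lost without Western siAATF replicate 1 (0.0577) or 2 (0.0549), Western null replicate 1 (0.105), 2 (0.0998) or 3 (0.0945), chow siAATF replicate 1 (0.173) or 2 (0.193), or chow null replicate 3 (0.113), and over 21 alternatives the adjusted p ran from 8.19e-06 to 0.197. Spp1 (-3.18 ± 0.63, adjusted p = 0.0617) and Cd63 (-2.13 ± 0.49, adjusted p = 0.102) did not pass. Both passed without Western siAATF replicate 3 (0.0184 and 0.0406), and with DESeq2 (2.59e-04 and 0.0326). Spp1 also passed without Western siAATF replicate 2 (0.034) and with no low-count filter (7.68e-11), where Fabp5 passed too (0.0374). Over 21 alternatives the adjusted p ran from 7.68e-11 to 0.178 for Spp1, 0.0326 to 0.578 for Cd63 and 0.0374 to 0.762 for Fabp5. Of the 10 members, 8 had an unadjusted p under 0.05, against 1093 of all genes.

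Because the members come from macrophages among other cells, the levels of general macrophage markers were set beside them. Of 19 tested pan-macrophage markers, 0 were called between Western siAATF and Western null by edgeR, with a median log2 fold change of -0.45. Of the 19, 1 lay apart lower and 0 higher there, against 7.87% and 7.69% of all genes. Between Western null and chow null 12 were called higher, with a median of 1.48. Of all genes, 6.44% were called higher in that comparison and 6.77% lower. The summed level of the list ran from 504 to 1088 CPM in Western siAATF, 905 to 1376 in Western null, 282 to 481 in chow siAATF and 368 to 524 in chow null. No marker of this list was at 0 throughout. Western siAATF replicate 3 had the lowest of the Western sums. It also had the lowest Gpnmb, Spp1, Lgals3, Itgax, Fabp5, Atp6v0d2 and Mmp12 of its group, but the highest Cd9. Trem2 and Cd63 were lowest in replicate 2. Among Kupffer cell markers, 1 of 14 tested, the haemoglobin scavenger receptor Cd163, was higher in Western siAATF (2.52 ± 0.57, adjusted p = 0.0485), and Cd163, Timd4 and C6 were lower and Cd207 higher in Western null than in chow null. Cd5l and Folr2 were listed at 0 in every library. Of these 2, 1 lies inside another gene, and every such gene is listed at 0, so that 0 gives no level. Of 8 tested monocyte markers none was called for the vector on the Western diet, and 5 were higher in Western null than in chow null, S100a4 (2.95 ± 0.67) and Cx3cr1 (2.77 ± 0.74) among them. The part of cell numbers in the members' differences was not tested.

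**Figure D3:**
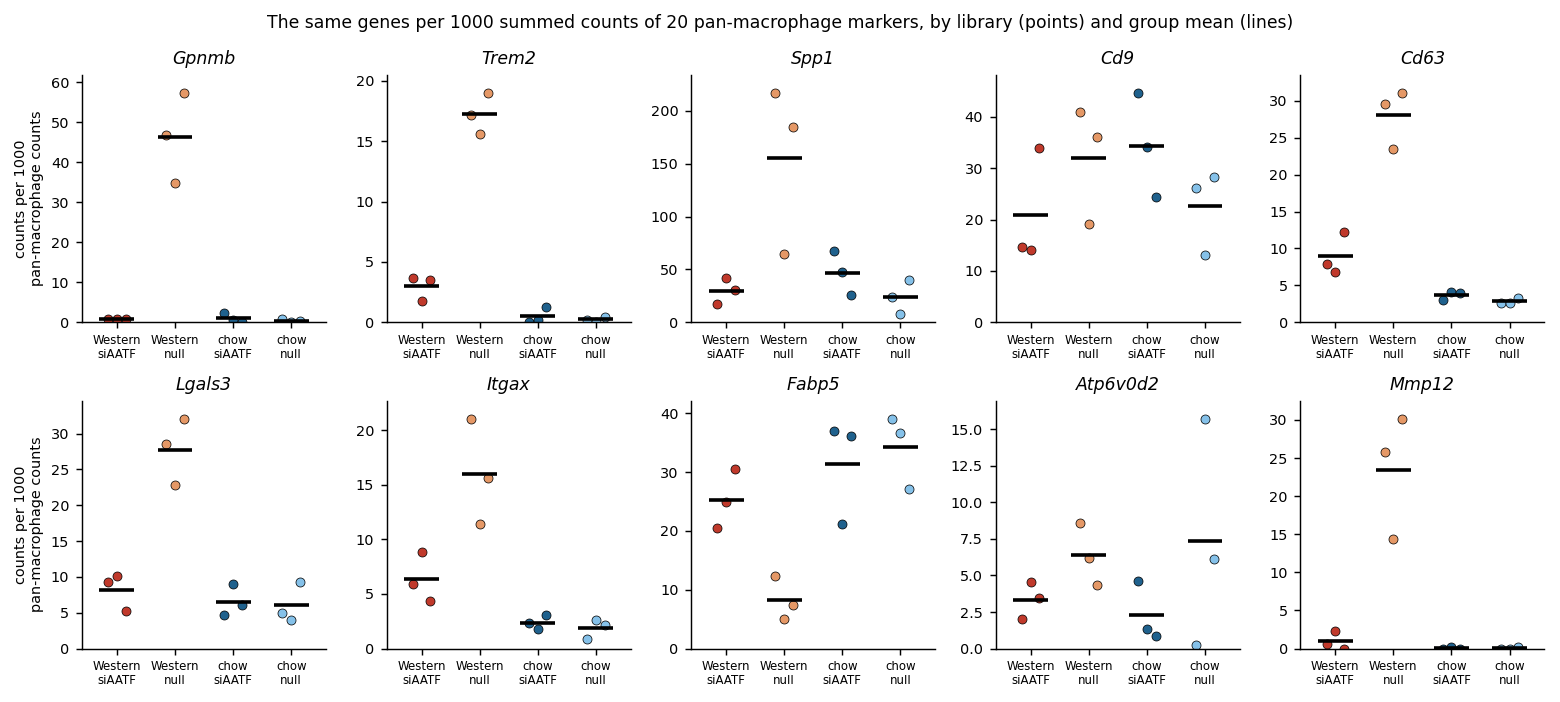
Counts of each member per 1000 counts summed over 20 pan-macrophage markers in the same library, with points for libraries and lines for group means. Gpnmb lies between 0.755 and 0.873 in Western siAATF and between 34.9 and 57.4 in Western null, and for Cd9 the Western groups overlap.

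Set against macrophage markers of the same library, most members still lay apart. Per 1000 pan-macrophage counts Gpnmb had 0.813, 0.755 and 0.873 counts in Western siAATF libraries, against 46.8, 34.9 and 57.4 in Western null libraries. Trem2 had 3.66, 1.76 and 3.49, against 17.2, 15.6 and 19.0, and Cd63 had 7.93, 6.80 and 12.2, against 29.6, 23.5 and 31.1. On this scale 7 of the 10 members had all Western siAATF libraries under all Western null libraries. The share of all genes lying apart on this scale was not computed, so the 7 have no baseline. Fabp5 lay apart in the other direction, at 20.5 to 30.5 in Western siAATF and 4.95 to 12.4 in Western null, and Cd9 and Atp6v0d2 overlapped. Replicate 3, low in CPM for Lgals3, stayed lowest for it here too, at 5.24 against 9.35 and 10.1 in the other Western siAATF libraries. The ratio does not depend on library scaling, but it shows unequal change and not which side changed.

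The members also shifted against each other. Per 100 counts of Cd63 in the same library, Gpnmb had 10.3, 11.1 and 7.14 counts in Western siAATF libraries and 158, 148 and 185 in Western null libraries. Trem2 had 46.2, 25.9 and 28.6, against 58.2, 66.3 and 61.0, and Mmp12 had 7.69, 33.3 and 0, against 87.3, 61.1 and 96.8. Lgals3 overlapped, at 118, 148 and 42.9 in Western siAATF libraries, against 96.4, 96.8 and 103 in Western null libraries, as did Itgax, Spp1 and Atp6v0d2. Cd9 and Fabp5 were higher relative to Cd63, with Cd9 at 185, 207 and 279 in Western siAATF libraries, against 138, 81.1 and 116 in Western null libraries. Gpnmb, Mmp12 and Trem2 were thus lower in proportion to Cd63, while Lgals3 scattered to both sides of its Western null values. This is a description of these libraries without a test.

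Markers of other cell types that can make some of the members were read in the same way. Cholangiocytes also make osteopontin, and of 7 tested cholangiocyte markers none was called between Western siAATF and Western null by edgeR (median -2.25). Of the 7, 3 lay apart lower and 0 higher there, against 7.87% and 7.69% of all genes. The sum of the list ran from 26.6 to 35.6 CPM in Western siAATF and from 30.3 to 63.3 CPM in Western null. Stellate cell and myofibroblast markers had 0 of 13 called for the vector on the Western diet (median -1.02), with 7 apart lower and 0 higher. Their sums were 371 to 765 CPM in Western siAATF and 1086 to 1501 CPM in Western null. For the diet under the null vector 7 were called higher, against 6.44% of all genes. Lrat was listed at 0 throughout. Dendritic cell markers could be tested for 4 of 12 genes, none of them called for the vector, and Clec9a was at 0 in every library. Lrat and Clec9a each lie inside another gene, and every such gene is listed at 0, so their 0 gives no level. The 8 osteoclast genes summed to 97.8 to 119 CPM in Western siAATF and 119 to 140 CPM in Western null, most of it Acp5 (73.8 to 88.9 CPM in Western siAATF and 93.3 to 115 CPM in Western null), and 0 of 3 tested were called (median -0.41). Of the same list Dcstamp, Ocstamp and Calcr stayed at or under 2.82 CPM in every library. Neutrophil markers summed to 159, 171 and 5.28 CPM in Western siAATF replicates 1 to 3, against 5.84 to 12.6 CPM in Western null, with 0 of 4 tested genes called. Liver endothelial markers had 0 of 12 called for the vector and 4 higher for the diet under the null vector. Of 15 hepatocyte markers 1, Fga, was higher in Western siAATF than in Western null (1.44 ± 0.32). In Western null 6 were lower than in chow null, against 6.77% of all genes. Of 15 T, NK and B cell markers only 1 could be tested, and 4 lie inside another gene. The part of these cells in the members' differences was not tested.

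**Figure D4:**
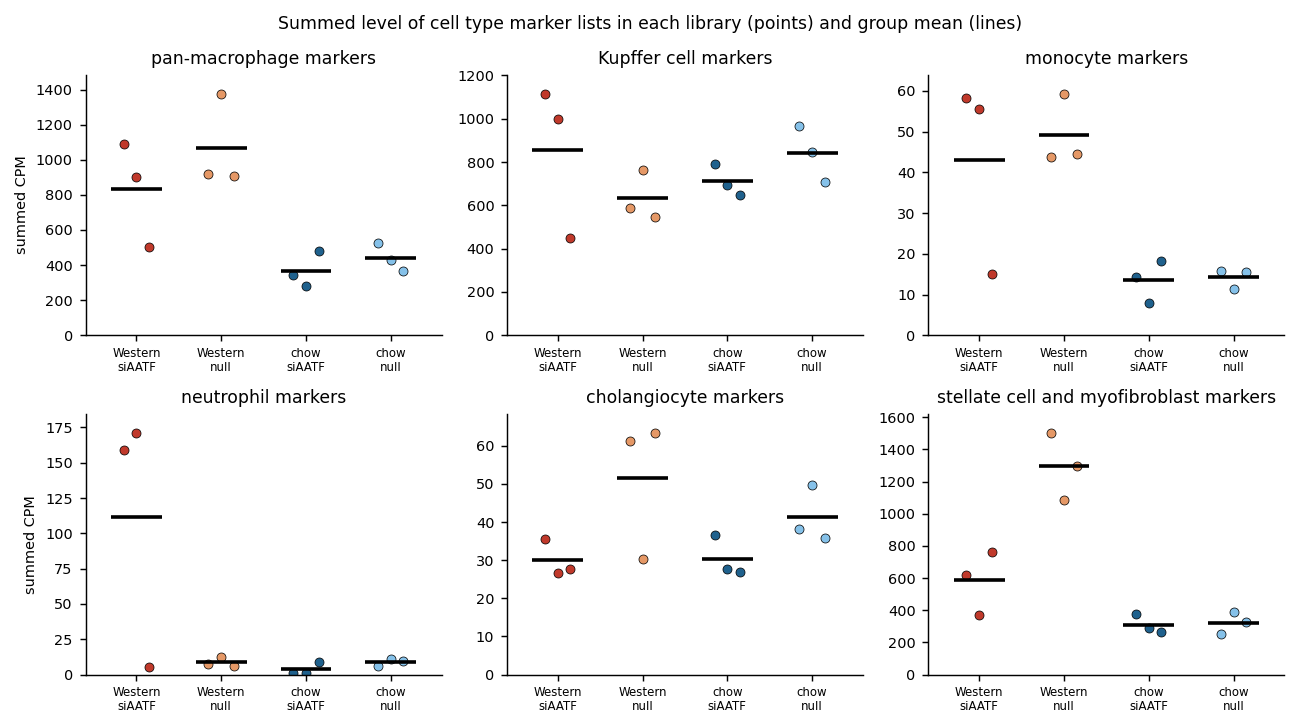
Summed CPM of 6 marker lists in each library (points) with group means (lines). Pan-macrophage sums of the Western groups overlap (504 to 1088 and 905 to 1376 CPM), stellate sums do not (371 to 765 and 1086 to 1501 CPM), and Western siAATF replicates 1 and 2 stand apart for neutrophil markers.

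Of 29 further tested genes of the lipid-associated macrophage programme, listed with earlier results known, 3 were lower in Western siAATF than in Western null and 0 higher: the phospholipid-binding annexin Anxa5 (-1.82 ± 0.25, adjusted p = 0.00179, edgeR), galectin-1 (Lgals1, -2.12 ± 0.41, adjusted p = 0.0196) and the actin-capping protein gene Capg (-1.91 ± 0.44, adjusted p = 0.0486). Of all genes, 0.871% were called in either direction there. The list's median was -0.49, and 13 of the 29 had all Western siAATF libraries under all Western null libraries and 0 above, against the 7.87% of all genes given earlier. Between Western null and chow null 17 of the 29 were higher and 0 lower, against 6.44% and 6.77% of all genes. The median was 1.21, and the calls were led by Anxa5 (2.58 ± 0.26), Lgals1 (3.88 ± 0.45), Emp1 (4.20 ± 0.60) and Capg (3.12 ± 0.46). Against chow siAATF, the lipid carriers Fabp4 (2.67 ± 0.51) and Cd36 (2.63 ± 0.51) were the 2 of 29 called higher in Western siAATF.

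The TREM2 complex and its signalling genes showed no call for the vector on the Western diet (0 of 11 by edgeR, median 0.12), and libraries lay apart for 0 of the 11. Tyrobp, the adaptor through which TREM2 signals, had 18.8, 11.8 and 6.60 CPM in Western siAATF libraries and 9.38, 27.3 and 16.5 CPM in Western null libraries, which overlap (-0.49 ± 0.44). It was the 1 of 11 called higher in Western null than in chow null (2.43 ± 0.48, adjusted p = 0.00394). Receptor and adaptor therefore differed in their values on the Western diet, a difference between genes that was not tested. Apoe, a TREM2 ligand made mostly by hepatocytes in liver, had -0.02 ± 0.36 for the vector on this diet.

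MiT/TFE factors are the transcription factors of lysosome biogenesis, and Gpnmb and Atp6v0d2 are known targets of the family. Of 17 tested genes of the family and its targets, 0 were called for the vector on the Western diet (median -0.29), against 0.871% of all genes. Of the 17, 8 lay apart lower and 0 higher there, against 7.87% and 7.69% of all genes. Between Western null and chow null 7 were higher, against 6.44% of all genes, Rragd (2.63 ± 0.51) and the lysosomal enzymes Hexa, Ctsd and Ctsb among them. Mitf had 18.1, 30.2 and 11 CPM in Western siAATF libraries and 12.8, 17.4 and 21.3 CPM in Western null libraries. The other V-ATPase subunits had 0 of 16 called for the vector on that diet (median -0.32), with 7 of the 16 apart lower and 0 higher, and 1 for the diet under the null vector, Atp6v1b2 (0.70 ± 0.20).

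Relatives of the other members had 1 call for the vector on the Western diet, a number to be read against the 0.871% of all genes called. Of all genes, 7.87% lay apart lower and 7.69% higher in that comparison. For the diet under the null vector 6.44% of all genes were called higher and 6.77% lower. None of 18 other tetraspanins was called on the Western diet (median -0.27, 3 apart lower and 1 higher), and under the null vector Cd151 (1.12 ± 0.25) and Tspan8 (3.22 ± 0.72) were higher and Tspan33 (-2.85 ± 0.60) lower than in chow null. Of 12 integrin and osteopontin receptor genes 0 were called for the vector on the Western diet (median -0.16, 2 apart lower), and Itgb2, the beta chain that pairs with CD11c, was higher in Western null than in chow null (1.83 ± 0.42). Lgals1 was the 1 of 5 other galectins called for the vector (median -0.09), and Lgals1 and Lgals3bp were the 2 called for the diet. Among 4 other fatty acid binding proteins 0 were called for the vector, and Fabp4 was higher for the diet (2.83 ± 0.51). Of 6 other metalloproteinases 0 were called for the vector (median -0.42, 2 apart lower), and Mmp2 was higher for the diet (2.28 ± 0.52). Large differences that missed the threshold for the vector on the Western diet included Mmp2 (-2.21 ± 0.52, adjusted p = 0.0646), Tspan8 (-2.26 ± 0.71, adjusted p = 0.193) and Fabp3 (3.96 ± 1.55, adjusted p = 0.41), of which Mmp2 and Tspan8 had libraries apart. These 3 were singled out after their values were seen.

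Across the 12 libraries, the mean standardised log2 CPM of the 10 members ran from -0.17 to 0.32 in Western siAATF, from 1.10 to 1.31 in Western null, from -0.92 to -0.53 in chow siAATF and from -0.73 to -0.60 in chow null. Cd63 (Pearson r 0.976) and Itgax (0.975) lay closest to this profile, and Fabp5 (-0.240) was the only member with a negative value. Trem2 and Cd63 were the most alike pair (0.994). Of 9822 other genes ranked by the same measure, the closest were Pls1 (0.972), Apoa4 (0.971), Vcam1 (0.970), H2-Q1 (0.963), Themis (0.955), Fam83a (0.954), Capg (0.952) and Haus8 (0.951). Apoa4, a lipoprotein gene of hepatocytes and gut, averaged 1378 ± 409 CPM in Western siAATF, 8474 ± 1699 in Western null, 193 ± 36.7 in chow siAATF and 140 ± 54.8 in chow null libraries (SD, n = 3 each). Vcam1, an adhesion molecule for leukocytes, averaged 18.6 ± 8.03, 39.6 ± 2.67, 6.55 ± 2.37 and 8.24 ± 1.39 CPM in the same order of groups. These correlations describe 12 libraries that fall into groups and share their scaling, and carry no test.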

How the data were processed

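Per the labels' protocols, SMART-Seq libraries were made from RNA of 12 mouse liver samples. The deposited values are counts of reads per gene on GRCm39, made by the authors with STAR 2.7.11 and featureCounts 2.0.1 in R 4.3.2, with DESeq2 1.42.0, per the submitters' processing notes. Whether reads were counted by strand is not given in the sources used here. In the deposited table every gene length equals the whole span, so introns are counted. All 10408 genes inside another gene, on the same or the other strand, are listed at 0.

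From these counts, genes were filtered with filterByExpr (11934 kept), scaled by TMM, and tested with edgeR 4.0.16 in R 4.3.3 (quasi-likelihood, robust) with 1 coefficient for each group, fitted to the 12 libraries together. P-values were adjusted by Benjamini-Hochberg over all genes of a comparison, with a threshold of 0.05. Standard errors were taken from the F statistic. Groups with 1 to 3 counts are given by the ratio of summed counts with an exact 95% interval. No fold is given where both groups hold 3 counts or fewer. The fit was tested on simulated data. Alternatives were DESeq2 1.42.0, limma 3.58.1 voom, RLE scaling, other filters (30 counts in 3 samples, or none), removal of the 18S gene, fits of the compared groups, a replicate block, thinning to 1551264 counts, and omission of libraries.

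The members and gene lists were chosen with earlier results of these data known. All 10 members are named, with Aatf, up to 4 called genes per list and the 8 genes most like the members' mean profile that average 5 CPM or more in some group. Names outside this rule (Apoe, Mitf, Clec9a, Fabp3, genes at 0, osteoclast genes) were chosen after their values were seen.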

Additional observations from a re-analysis of the deposited data

Results flagged for a closer look

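The interaction term of Gpnmb was called in the fit of all 4 groups (log2 -6.17 ± 1.15, adjusted p = 0.0396 by edgeR, over all genes). A lowering on chow could hardly be seen at the counts given next, so this term rests on the Western difference (-6.04 ± 0.50). Gpnmb held 8 counts in Western siAATF, 806 in Western null, 6 in chow siAATF and 5 in chow null libraries. The adjusted p ran from 8.19e-06 to 0.197 over 21 alternatives, of which 10 kept the call. Its cause was not tested. With 3 libraries in a group, single libraries were not tested as outliers.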

How the results depend on the processing

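Western siAATF over Western null had 6 members called, 3 to 6 when single libraries were left out (3 without Western null replicate 3) and 3 to 9 over all 16 alternatives, with no direction reversed. Western null over chow null had 8 to 9 and chow siAATF over chow null 0 throughout, with 5 tested when only the chow groups were fitted. Members called against chow siAATF (3) became 5 with DESeq2 or no filter, 1 with the replicate block or without the libraries over 25% 18S, 0 when thinned or with the compared groups only (7 tested), and 1 to 5 when single libraries were left out. Against chow null (4) they became 0 when thinned or with the compared groups only (7 tested), and 1 to 5 with single libraries left out. For the interaction (1) they became 3 with DESeq2 or no filter, 0 with the block or thinned, and 0 to 3 with single libraries left out. Without the libraries over 25% 18S only chow null replicate 3 was left in chow null. No separate count is therefore given for that alternative against chow null or for the interaction.

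Only uncalled values changed sign. For chow siAATF over chow null these were Trem2 -0.27 and Cd63 0.00 (limma-voom), Trem2 -0.78, Cd9 -0.17, Cd63 -0.70 and Lgals3 0.09 (thinned), and Spp1 -0.15 and Fabp5 0.19 (without libraries over 25% 18S). With single libraries left out that comparison ran from -0.65 to 1.51 for Gpnmb, -1.13 to 1.24 for Trem2, -0.01 to 0.48 for Cd9, -0.12 to 0.26 for Cd63, -0.33 to 0.05 for Lgals3 and -0.22 to 0.73 for Itgax. Atp6v0d2 became -0.15 (thinned) and -0.13 (without libraries over 25% 18S) against chow null, -0.51 to 1.14 with single libraries left out, and for the interaction -0.19 (limma-voom) and -0.32 to 1.30.

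All genes called ran from 26 to 572 for Western siAATF over Western null (main 104, DESeq2 285, no filter 572, compared groups 53), 658 to 2026 for Western null over chow null (1577), 0 to 33 on chow (0), 17 to 836 against chow siAATF (177), 24 to 948 against chow null (290) and 2 to 331 for the interaction (23). Replicate numbers only name the samples: of 18 same-numbered pairs 1 correlated above 0.1 (-0.378 to 0.259), and the replicate block gave 64, 71, 141 and 14 genes for the first, the chow siAATF, the chow null and the interaction comparisons. Counts of 0 to 18 per library limit Gpnmb, Trem2 and Mmp12 outside Western null. Other causes were not tested.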

Other observations

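Neutrophil granule genes were not among the members, yet they set Western siAATF replicates 1 and 2 apart. In Western siAATF replicates 1 to 3 S100a9 had 53.3, 88.5 and 1.76 CPM, while it had 1.97, 2.73 and 1.26 CPM in Western null. Ltf, which encodes lactoferrin, stood at 32.3, 24.1 and 0.44 CPM, against 0, 0 and 0.0898 CPM in Western null. The scavenger receptor gene Marco, of the Kupffer cell list, was also highest in replicates 1 and 2, at 180, 99.9 and 6.60 CPM in Western siAATF and 2.96, 7.84 and 2.42 CPM in Western null. It was not private to them, with 50.8, 11.3 and 20.9 CPM in chow siAATF and 79.9, 18.1 and 7.14 CPM in chow null. Gpnmb, at 0.885, 0.681 and 0.44 CPM in the Western siAATF libraries, was low in all 3 of them. Ltf and Marco were named after their values were seen.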
